A study of Danio rerio with 6 samples.

Results

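The Notch receptors, the Jagged ligands, the DNA-binding protein Rbpj and the target gene her6 were examined in zebrafish (Danio rerio) embryos that lack bcas2. These are 10 genes of the 32520 in the tables: the receptor genes notch1a, notch1b, notch2 and notch3, the ligand genes jag1a, jag1b and jag2b, the Rbpj genes rbpja and rbpjb, and her6. They were taken by gene symbol, each symbol matched 1 Ensembl gene, and all 10 passed the filter on low counts. Whole embryos at 3 days post fertilization (dpf) were compared by RNA sequencing in 2 genotypes, wild type (WT) and bcas2 knockout (bcas2-KO). Each genotype had 3 pools of 10 embryos, and 1 library was made from each pool. The labels name no strain, allele, clutch or applied agent for either genotype. The labels describe the pools as whole embryos, but some libraries held few eye transcripts (values below). A lower or higher level cannot be told apart from fewer or more cells of a type that uses the gene.

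Notch signalling passes between touching cells. A Jagged or Delta ligand on one cell binds a Notch receptor on its neighbour, the receptor is cut by an Adam protease and then by gamma-secretase, and its freed inner part moves to the nucleus and joins Rbpj. Rbpj sits on DNA with corepressors when the signal is off and with coactivators when it is on, and its best known targets are genes of the Hes, her and hey family. In the zebrafish larva the pathway keeps neural progenitors from becoming neurons, separates artery from vein, and patterns the jaw, the inner ear and blood stem cells. The product of bcas2 belongs to the Prp19 complex, a part of the spliceosome, the machine that removes introns.

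Gene counts summed to 35.6 M to 49.5 M in the WT libraries and to 32.8 M to 40.5 M in the bcas2-KO libraries. The targeted gene bcas2 stood at 29.4, 27.9 and 27.4 CPM (counts relative to the scaled library total) in WT libraries 1 to 3 and at 3.54, 3.09 and 4.49 CPM in the bcas2-KO libraries, in the direction the labels give. WT library 1 and bcas2-KO library 3 stood apart by eye transcripts. The summed level of 9 lens markers was 202 and 170 CPM in these libraries and 1.09 to 3.92 CPM in the other 4, and that of 8 photoreceptor markers was 218 and 108 CPM against 0.896 to 3.50 CPM. In 1 or more of these 4 libraries, 2 lens markers (cryaa and cryba4) and 5 photoreceptor markers (opn1sw1, opn1lw2, gnat1, arr3a and crx) had no read. Markers of muscle and neurons were present in every library: 6 skeletal muscle genes summed to 79334 to 104437 CPM and 7 neuronal genes to 685 to 798 CPM. These sums do not show that the pools were alike in other tissues. Whether the 4 pools with few eye transcripts held less eye tissue was not tested, so levels may not stand for the whole animal in every pool. Between genotypes 1 of the 7 neuronal genes (gap43) fell, as did 1 of 3 hatching gland genes (agr2), where 9.01% of all tested genes were called lower. The hatching gland genes summed to 169 to 215 CPM in WT and 110 to 127 CPM in bcas2-KO. Most of this sum came from cd63 (means of 109 and 94.5 CPM, not called) and agr2 (66.9 and 24.4 CPM). The lower sum is not read as a loss of hatching gland. Within this sum he1.1 differed widely between pools of a genotype. It had 6.52, 39.6 and 0.479 CPM in WT and 0.654, 1.95 and 0.123 CPM in bcas2-KO, and was not called. Of the tested lens (4), photoreceptor (6) and muscle (6) genes, 0 were called by edgeR or DESeq2 and 0 had a p under 0.05 before adjustment. Results are given with and without the libraries with eye transcripts where that changes a call. Counts were compared by the quasi-likelihood test of edgeR with Benjamini-Hochberg adjustment over 22347 genes, and a gene is called changed at an adjusted p under 0.05.

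In bcas2-KO embryos the ligand genes jag1b and jag2b, rbpja and her6 rose. Of the receptor genes 0 were called by edgeR and 0 by DESeq2, while 1, notch2, was under 0.05 by its unadjusted p. Thus 4 of the 10 genes were called higher and 0 lower, where 10.6% of all tested genes were called higher and 9.01% lower. The 10 genes were chosen with earlier results of these data known, so this comparison of shares is no test. The genotypes did not overlap in 6 of the 10 genes, all of them higher in bcas2-KO, where 20.1% of all tested genes separated upward and 19.4% downward, 39.4% in all. The median log2 fold change (bcas2-KO over WT) of the 10 genes was 0.26, and that of all tested genes was -0.02. By DESeq2 4 were called higher as well. Without WT library 2 a single call was left, that of jag1b, and 1730 of all genes were called in place of 4382. With any other library left out, 3 or 4 of the 10 genes were called.

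**Figure D1:**
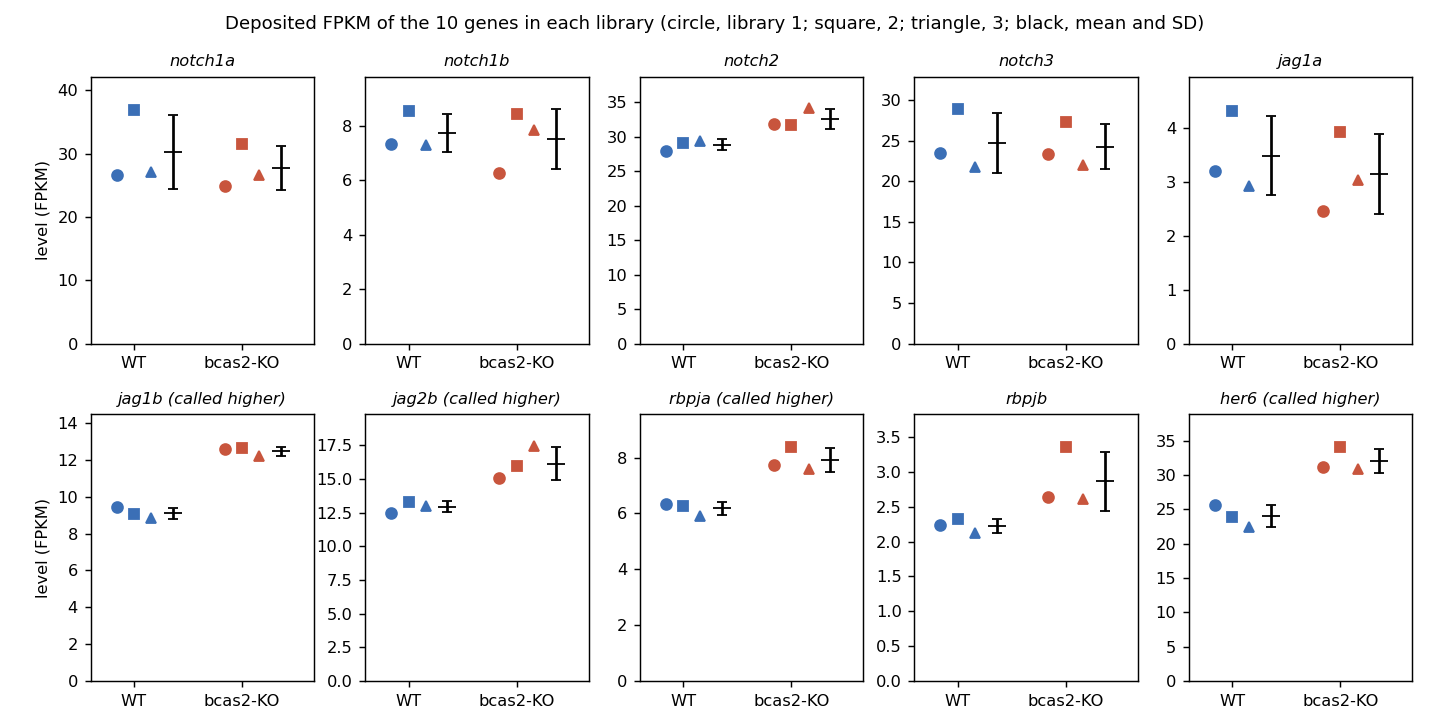
Level of each of the 10 genes in FPKM (reads per length of gene and depth of library, as deposited) on a linear axis from 0, with 1 point per library and the mean and SD (n = 3 pools) in black. The bcas2-KO libraries lie above all WT libraries in notch2, jag1b, jag2b, rbpja, rbpjb and her6, and the genotypes overlap in notch1a, notch1b, notch3 and jag1a.

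Levels were compared between genes in the deposited FPKM, which are per length. In WT the order of mean levels was notch1a (30.2 FPKM), notch2 (28.8), notch3 (24.7), her6 (24.0), jag2b (12.9), jag1b (9.12), notch1b (7.73), rbpja (6.18), jag1a (3.49) and rbpjb (2.23). The libraries of neighbours in this order overlapped from notch1a down to her6, and each later step separated all 3 libraries of one gene from all 3 of the next. In bcas2-KO notch2 (32.6 FPKM) and her6 (32.1 FPKM) came first. The first 4 genes overlapped with their neighbours among themselves there, as did rbpja with notch1b and jag1a with rbpjb.

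The receptors are the proteins that receive the signal. The gene notch1a (ENSDARG00000103554), one of a duplicated pair related to mammalian NOTCH1, had 101, 138 and 102 CPM in WT and 94.8, 120 and 102 CPM in bcas2-KO. Library 2 was the highest of each genotype, and the genotypes overlapped. The log2 fold change was -0.11 (SE 0.14 by edgeR, adjusted p = 0.63), and the 95% interval of the fold ran from 0.748 to 1.15.

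Its duplicate notch1b (ENSDARG00000052094) had 26.5, 30.2 and 25.9 CPM in WT and 22.6, 30.3 and 28.4 CPM in bcas2-KO, with library 2 again the highest of each genotype. Its log2 fold change was -0.02 (SE 0.12 by edgeR, adjusted p = 0.91), with a fold interval of 0.817 to 1.18. The gene notch3 (ENSDARG00000052139), known from pericytes around vessels and from radial glia, had 126, 152 and 115 CPM in WT and 125, 147 and 119 CPM in bcas2-KO. In this gene too library 2 stood highest on both sides. The log2 fold change was -0.01 (SE 0.12 by edgeR, adjusted p = 0.96), with a fold interval of 0.825 to 1.19. The sign of this small value was opposite under library totals (0.025) and without the libraries with eye transcripts (0.032), and that of notch1b was opposite under library totals (0.0095).

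Among the receptors, notch2 alone separated the genotypes. The gene notch2 (ENSDARG00000043130) had 128, 131 and 133 CPM in WT and 146, 145 and 158 CPM in bcas2-KO. All bcas2-KO libraries lay above all WT libraries, by a small margin. The log2 fold change of 0.19 (SE 0.07) had an unadjusted p of 0.0227 and did not pass the adjusted threshold (adjusted p = 0.0865, edgeR; 0.0587 to 0.277 over the other settings). In a RefSeq gene table of another assembly (GRCz12tu), notch2 is the 1 gene of the 10 on the chromosome of bcas2, with 245 genes between them. On that chromosome 21.6% of 779 tested genes were called and on the others 20.7% of 16820. Whether the position of notch2 matters for its level was not tested.

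The summed level of the 4 receptor genes was 85.4, 104 and 85.6 FPKM in WT and 86.4, 99.0 and 90.8 FPKM in bcas2-KO, so the genotypes overlapped. Of this sum notch1a gave 32.8% ± 2.50 in WT and 30.0% ± 1.64 in bcas2-KO, and notch2 gave 31.7% ± 3.26 and 35.5% ± 3.09 (SD, n = 3 pools each). The share of notch3 was 27.0% ± 1.37 and 26.3% ± 1.80, and that of notch1b 8.46% ± 0.180 and 8.14% ± 0.756. No test was made of these shares.

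**Figure D2:**
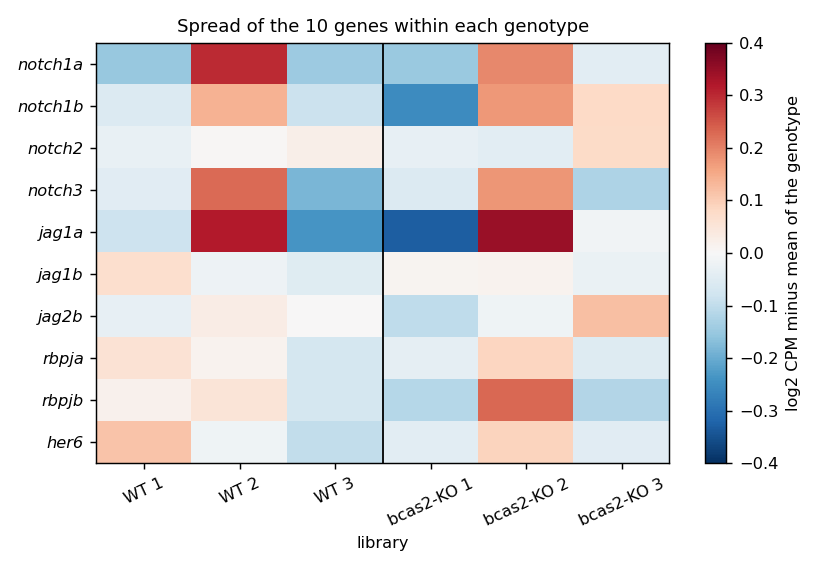
Deviation of each gene in each library from the mean of its genotype, in log2 CPM, for the 10 genes (rows) and 6 libraries (columns). Library 2 is the highest of both genotypes in notch1a, notch1b, notch3, jag1a and rbpjb.

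The Jagged ligands sit on the sending cell. The gene jag1b (ENSDARG00000013168), which acts in zebrafish in the patterning of the pharyngeal arches, had 29.0, 27.4 and 26.8 CPM in WT and 38.7, 38.8 and 37.7 CPM in bcas2-KO. The 3 libraries of each genotype lay close together and the genotypes were well apart. It rose 1.38-fold, with a 95% interval of 1.23 to 1.56 (log2 fold change 0.47, SE 0.08 by edgeR, adjusted p = 0.00347). Of the 10 genes it had the smallest p, and it ranked 742 by p among all tested genes. The call held in each alternative tried, with an adjusted p of 1.6e-05 to 0.0236.

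The gene jag2b (ENSDARG00000021389), which codes for a second type of Jagged ligand, had 38.8, 40.5 and 39.7 CPM in WT and 46.5, 49.4 and 54.2 CPM in bcas2-KO. All bcas2-KO libraries were higher, and library 3, one of the libraries with eye transcripts, was the highest. It rose 1.26-fold (interval 1.11 to 1.43, log2 fold change 0.34, SE 0.08 by edgeR, adjusted p = 0.0190). It did not pass without bcas2-KO library 3 (log2 fold change 0.28, adjusted p = 0.0714), without WT library 2 (0.35, adjusted p = 0.0650) and without both libraries with eye transcripts (0.27, adjusted p = 0.0873).

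The third ligand gene, jag1a (ENSDARG00000030289), is the duplicate of jag1b and had the lowest level of the 3. It had 9.79, 12.9 and 8.79 CPM in WT and 7.46, 12.0 and 9.29 CPM in bcas2-KO, with library 2 the highest of each genotype and a wide overlap. The log2 fold change was -0.14 (SE 0.20 by edgeR, adjusted p = 0.67), with a fold interval of 0.670 to 1.24. The summed level of the 3 ligand genes was 25.2, 26.7 and 24.8 FPKM in WT and 30.1, 32.5 and 32.7 FPKM in bcas2-KO, without overlap.

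**Figure D3:**
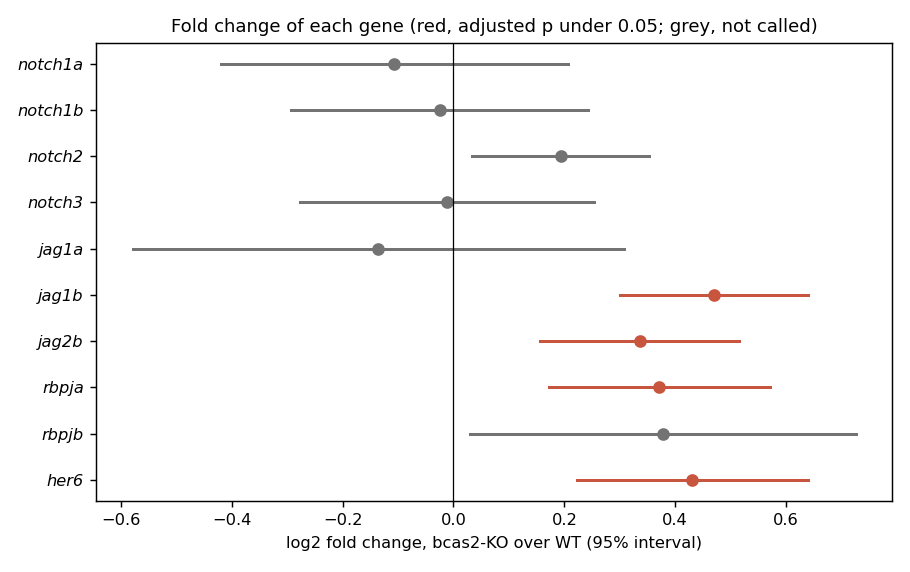
Log2 fold change of bcas2-KO over WT for each of the 10 genes (point) with its 95% interval (line), in red where the gene was called. The called genes jag1b, jag2b, rbpja and her6 lie between 0.34 and 0.47, and the interval of rbpjb is the widest of those above 0.

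Rbpj is the protein that brings the signal to DNA. The gene rbpja (ENSDARG00000003398) had 14.9, 14.4 and 13.6 CPM in WT and 18.0, 19.6 and 17.8 CPM in bcas2-KO. The genotypes did not overlap. It rose 1.29-fold (interval 1.13 to 1.48, log2 fold change 0.37, SE 0.09 by edgeR, adjusted p = 0.0189). With WT library 2 left out the adjusted p was 0.0711, with WT library 3 left out 0.0577, and with bcas2-KO library 1 or 2 left out 0.0589 or 0.0591, so the call was lost each time, while the log2 fold change stayed between 0.33 and 0.41 with any 1 library left out.

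The second copy, rbpjb (ENSDARG00000052091), was the lowest of the 10 genes, with counts of 166, 142 and 102 in WT and of 158, 197 and 124 in bcas2-KO. Scaled for depth these were 3.25, 3.33 and 3.05 CPM in WT and 3.83, 4.87 and 3.81 CPM in bcas2-KO, without overlap and with bcas2-KO library 2 highest. The log2 fold change of 0.38 (SE 0.16) was close in size to that of rbpja but did not pass (adjusted p = 0.117, edgeR). Its fold interval was 1.02 to 1.65, and without bcas2-KO library 2 the log2 fold change was 0.25.

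The gene her6 (ENSDARG00000006514), the zebrafish counterpart of mammalian Hes1, codes for a repressor that holds progenitors undifferentiated. It had 18.0, 16.4 and 15.5 CPM in WT and 21.8, 23.9 and 21.8 CPM in bcas2-KO. The lowest bcas2-KO library was above the highest WT library. It rose 1.35-fold (interval 1.17 to 1.56, log2 fold change 0.43, SE 0.09 by edgeR, adjusted p = 0.0126). It missed the threshold once WT library 2 was left out (log2 fold change 0.42, adjusted p = 0.0597). Of 10 markers of neural progenitors, cells in which her6 is known to act, 1 fell and 0 rose. This is near the shares of all tested genes, 9.01% called lower and 10.6% higher. None of the markers was at 0 in any library, and their summed level was 594 to 792 CPM in WT and 550 to 568 CPM in bcas2-KO. Most of this sum came from gfap (364 to 573 CPM in WT and 357 to 390 CPM in bcas2-KO), which was not called (unadjusted p = 0.0476, edgeR). The marker that fell was fabp7a, from 106, 147 and 116 CPM in WT to 68.2, 68.9 and 76.2 CPM in bcas2-KO (adjusted p = 0.00271, edgeR). The part of progenitor numbers in the level of her6 was not tested.

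Duplicate genes make up the notch1, jag1 and rbpj pairs, and the ratio of one copy to the other within a library does not depend on scaling. The jag1b level was 2.93, 2.09 and 3.01 times the jag1a level in WT and 5.13, 3.21 and 4.01 times in bcas2-KO, both in FPKM. Every bcas2-KO library was above every WT library, and the log2 ratio of jag1a to jag1b was -1.40 ± 0.29 in WT and -2.02 ± 0.34 in bcas2-KO (SD, n = 3 pools each). The difference of -0.61 had a p of 0.10 in a two-sided exact permutation test, the smallest that 3 against 3 libraries can give, and an adjusted p of 0.30 over the 3 pairs compared. For rbpja over rbpjb the log2 ratio was 1.47 ± 0.04 in WT and 1.47 ± 0.13 in bcas2-KO, a difference of 0.0018 (exact permutation p = 1.0). For notch1a over notch1b it was 1.95 ± 0.14 and 1.89 ± 0.11, a difference of -0.07 (exact permutation p = 0.70). Copy a thus made up most of the pair for notch1 and rbpj, and copy b for jag1, in all 6 libraries.

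**Figure D4:**
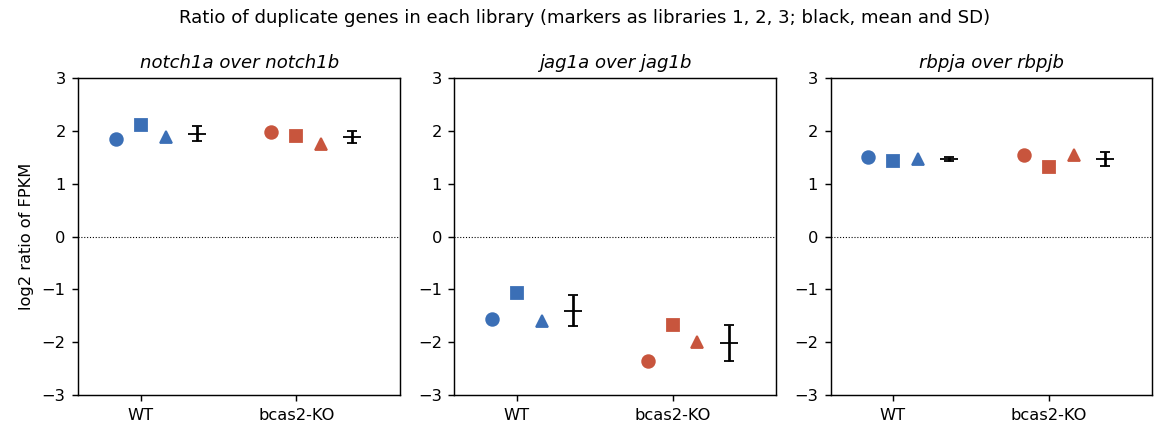
Log2 ratio of the FPKM of copy a to that of copy b in each library, with the mean and SD (n = 3 pools) in black and a dotted line at equal levels. The jag1 ratio lies lower in all bcas2-KO libraries (-1.68 to -2.36) than in all WT libraries (-1.07 to -1.59), and the notch1 and rbpj ratios overlap.

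The rest of the pathway was described from a list of genes sorted by role, of which 65 genes were tested. Of these, 14 were called higher and 2 lower, with a median log2 fold change of 0.19. Of all tested genes 10.6% were called higher and 9.01% lower. The same shares stand beside the counts by role below, which rest on 5 to 19 genes each. The list was written with earlier results of these data known, so the comparison is no test. Without WT library 2, 7 were called higher and 1 lower, and without bcas2-KO library 1, 8 and 1. Without both libraries with eye transcripts 12 were called higher and 2 lower, and not every gene whose call changed there is named below.

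Among the other ligand genes 1 of 6 rose and 0 fell, a count too small to set apart from the 10.6% of all tested genes called higher. The called gene was dll4, a ligand of arterial endothelium, at 12.8, 13.3 and 14.4 CPM in WT and 18.1, 17.6 and 15.8 CPM in bcas2-KO libraries. Its log2 fold change was 0.35 (SE 0.10 by edgeR, adjusted p = 0.0329). The genotypes did not overlap, but the dll4 call was lost with upper-quartile scaling (adjusted p = 0.0645), in both limma fits on FPKM (0.0986 and 0.0983), in the 4 libraries without eye transcripts (0.0598) and with WT library 1 (0.0637) or 2 (0.113) or bcas2-KO library 1 (0.117) or 2 (0.0820) left out. Of the endothelial markers 3 of 8 fell and 0 rose, where 9.01% of all tested genes were called lower. Their summed level was 202 to 218 CPM in WT and 163 to 186 CPM in bcas2-KO. Of the markers of mural cells, the cells around vessels where notch3 is known, 3 of 6 fell and 0 rose, beside the same share. Their sums were 326 to 375 CPM in WT and 275 to 297 CPM in bcas2-KO. No marker of either list was at 0 in any library. The part of cell numbers in the levels of dll4 and notch3 was not tested.

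Of the genes for ligand endocytosis, a step that pulls on the bound receptor, 0 of 5 were called by edgeR and 0 by DESeq2, while an unadjusted p under 0.05 was found for 2. The ubiquitin ligase gene mib1 had the highest level, 77.6, 68.2 and 68.2 CPM in WT and 78.4, 82.7 and 82.9 CPM in bcas2-KO libraries. Its log2 fold change was 0.19 (SE 0.08 by edgeR, adjusted p = 0.124). Genes for sugar transfer to the receptor moved in both directions, with 2 of 5 higher and 1 lower. The Fringe gene lfng, whose enzyme extends a sugar on Notch and so tunes its choice of ligand, had 59.2, 63.6 and 52.8 CPM in WT and 86.4, 95.4 and 72.9 CPM in bcas2-KO. It rose 1.45-fold (adjusted p = 0.0101, edgeR), and its relative rfng rose 1.38-fold (adjusted p = 0.0265). The O-glucosyltransferase gene poglut1 fell, from 9.98, 11.2 and 9.96 CPM in WT to 6.27, 7.72 and 5.72 CPM in bcas2-KO libraries. Its log2 fold change was -0.66 (SE 0.13 by edgeR, adjusted p = 0.00941). With bcas2-KO library 1 left out, lfng (0.0509) and poglut1 (0.0556) did not pass, and poglut1 did not pass without WT library 2 (0.0542) either. The rfng call was lost when WT library 2 (0.102) or 3 (0.0809) or any bcas2-KO library (0.0697, 0.0765 and 0.0651 for 1, 2 and 3) was left out.

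Of the genes for receptor cleavage, 3 of 8 rose and 0 fell. The protease gene adam10b, for an enzyme that cuts the bound receptor outside the cell, rose 1.78-fold, from 35.9, 33.3 and 31.9 CPM in WT to 62.5, 57.6 and 59.5 CPM in bcas2-KO libraries. Its log2 fold change was 0.83 (SE 0.08 by edgeR, adjusted p = 0.000224). Its duplicate adam10a had means of 90.5 CPM (WT) and 97.7 CPM (bcas2-KO) and was not called (adjusted p = 0.295). The protease gene adam17b rose 1.54-fold (adjusted p = 0.00574). The gamma-secretase subunit gene psenen rose 1.26-fold (adjusted p = 0.0445), a call that was lost in 8 of the 16 alternatives (adjusted p up to 0.129), among them 5 of the 6 with 1 library left out.

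The nuclear partners of Rbpj held the most calls. Among coactivator genes 3 of 5 rose and 0 fell. The histone acetyltransferase gene ep300a had 41.1, 42.2 and 42.7 CPM in WT and 72.0, 70.0 and 71.8 CPM in bcas2-KO, a rise of 1.70-fold (log2 fold change 0.76, SE 0.07 by edgeR, adjusted p = 0.000165). Its duplicate ep300b rose 1.34-fold (adjusted p = 0.00493). The gene snw1, whose product binds the Notch-Rbpj complex and is also a part of the spliceosome, rose 1.24-fold (adjusted p = 0.0176). It did not pass when WT library 2 (0.0577) was left out, nor without bcas2-KO library 3 (0.0645) or both libraries with eye transcripts (0.0587).

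Among corepressor genes 4 of 8 rose and 0 fell, so the called genes of both kinds of partner were higher. The gene spen, for a large corepressor that binds Rbpj, had 31.5, 32.6 and 33.0 CPM in WT and 50.6, 47.4 and 52.1 CPM in bcas2-KO, a rise of 1.55-fold (log2 fold change 0.63, SE 0.08 by edgeR, adjusted p = 0.000831). The gene ncor1, for a scaffold that carries histone deacetylases, rose 1.31-fold (adjusted p = 0.0127), but not when WT library 2 (0.0681) or bcas2-KO library 3 (0.0530) was left out. The gene tle3a, for a Groucho corepressor, also rose and was chosen after its values were seen (log2 fold change 0.35, adjusted p = 0.0139).

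**Figure D5:**
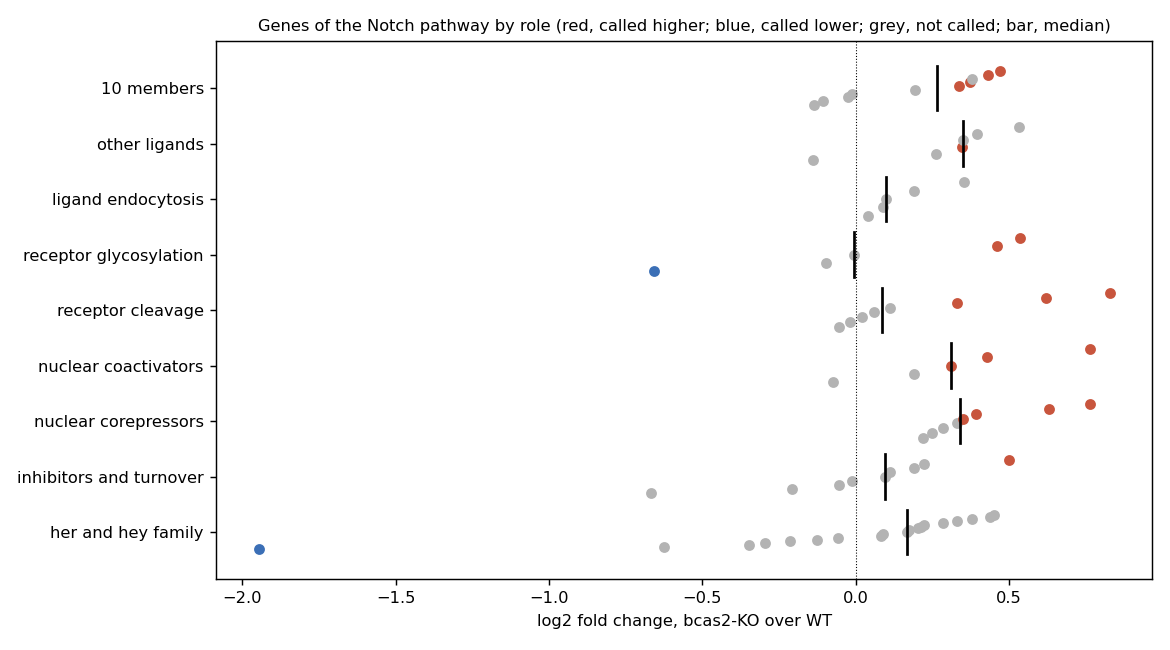
Log2 fold change of bcas2-KO over WT for each tested gene of the Notch pathway, sorted by role (1 point per gene), with the median of each role as a bar. The medians are 0.31 for coactivators and 0.34 for corepressors, and her8.2 lies far to the left at -1.95.

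Of the inhibitors of the pathway and the genes for its turnover, 1 of 9 rose and 0 fell, near the 10.6% of all tested genes called higher. The gene numb, for an adaptor that keeps Notch off in 1 daughter of a dividing cell, had 32.2, 36.2 and 43.2 CPM in WT and 54.9, 46.6 and 56.1 CPM in bcas2-KO. It rose 1.41-fold (adjusted p = 0.0186, edgeR), but did not pass when WT library 2 (0.0800), bcas2-KO library 1 (0.0711) or 3 (0.0678) or both libraries with eye transcripts (0.0867) were left out.

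Apart from her6, the her and hey family gave a single call among 19 tested genes, and it was lower. The median log2 fold change of the 19 genes was 0.17, beside -0.02 for all tested genes, and 12 of the 19 were above 0. Of all tested genes 10.6% were called higher and 9.01% lower. The gene her8.2 fell from 340, 601 and 447 counts in WT to 128, 133 and 78 counts in bcas2-KO libraries. Its log2 fold change was -1.95 (SE 0.29 by edgeR, adjusted p = 0.00484). WT library 1 had less than the other WT libraries but still more than any bcas2-KO library. Of all tested genes 39.4% separated the genotypes, while the other 18 genes, some with few reads (hes2.2, 7 to 19 counts), had overlapping genotypes. Among them hey1 (27.3 CPM in WT, 28.9 CPM in bcas2-KO) and the feedback inhibitor gene nrarpa of the preceding group (43.8 and 43.5 CPM) were named after their values were seen. The her4 genes form a family of near-identical copies, and no source used here says how reads shared by copies were assigned, so their single values are uncertain.

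Genes with a pattern like that of each called gene were sought among 13374 tested genes with a symbol and at least 5 CPM on average. Likeness was the root mean square difference in log2 CPM over the 6 libraries, each gene centred on its own mean. The closest genes to jag1b were the histone methyltransferase gene setd1a (0.031), the basement membrane collagen gene col4a1 (0.031) and the spliceosome gene prpf6 (0.031). The closest to jag2b were klhdc10 (0.0066), ppp2r2d (0.032) and fbxw11a (0.032). The closest to rbpja were the receptor gene ror2 (0.030), uso1 (0.031) and brd3a (0.032), and the closest to her6 were fam122b (0.023), lbr (0.024) and the RNA helicase gene DDX17 (0.026). All 12 had log2 fold changes between 0.28 and 0.49, which follows from how they were picked. None of them is on the Notch pathway list, but that list is short beside the 13374 genes searched, so nothing is read from this.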

How the data were processed

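Whole-embryo RNA of 6 pools was sequenced as paired reads with the NEBNext Ultra RNA kit, per the labels' protocols. The authors deposited raw counts per Ensembl gene, which are whole numbers, and a second table of FPKM values of the same genes. The build is GRCz11 (danRer11) per the submitters' processing notes, which list, with no role for any, the aligner STAR 2.6.1a, the counter featureCounts 1.6.0, StringTie 1.3.3b, cutadapt 1.15 and DESeq2 1.22.1. No source used here gives the strand setting, the annotation release or the treatment of multiply matching reads, and overlapping genes therefore cannot be told apart. Within a gene, count and FPKM kept 1 ratio after a factor per library (coefficient of variation at most 0.0223% over 7169 genes).

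From the counts, genes were kept with filterByExpr at a minimum count of 10 (22347 genes), scaled by TMM and tested with edgeR 4.0.16 (quasi-likelihood, robust, two-sided, with genotype alone in the model) under R 4.3.3. CPM use the TMM-scaled totals. Intervals are 95% intervals of that fit. For scale, 3 counts equal 0.0587 to 0.0923 CPM by library, and lower values were used as they were. The fit was also run on simulated counts, drawn gene by gene with dispersions estimated from these libraries. Drawn independently, such counts lack differences between pools that run across many genes, so nothing about these data is read from that run. Within a genotype, libraries differed by a chi-square of 12.7 to 34.4 per degree of freedom, so none was a copy of another. The samples are labelled biological replicates, and clutches are not stated. The p-values set the difference between genotypes against the spread between these pools. A difference of clutch between the genotypes could not be told apart from one of genotype.

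The 10 genes, the pathway list of 73 symbols and the marker lists were chosen with earlier results of these data known. Of the 73, 4 were not analysed here for want of a matching symbol and 1 matched 2 genes, which gave 70 genes, of which 5 were under the filter. A further symbol shared its gene with another and was counted once. Named pathway genes are up to 3 called genes of smallest p per role or, with none called, the most abundant. The text says where another gene was picked with its values known, except duplicates and markers given for comparison. Alternatives were DESeq2 1.42.0, other scalings and filters, the replicate block, leaving out libraries, and limma 3.58.1 on log2(FPKM + 0.1) and log2(FPKM + 1). A planned description of promoter motifs was not made, since no sequence was used here. A further called gene of the pathway list is counted but not reported here.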

Additional observations from a re-analysis of the deposited data

How the results depend on the processing

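The count of the 10 genes called was 4, all higher, under DESeq2, each scaling, each filter, the replicate block and both limma fits, 3 without both libraries with eye transcripts, and 1 to 4 with 1 library left out. With 1 library left out, the pathway list gave 8 to 20 calls and all genes 1730 to 5171 (WT library 2 left out, 1730; bcas2-KO library 1, 1974; bcas2-KO library 3, 2491). Upper-quartile scaling put 39.9% of all calls on the higher side against 54.1% in the fit reported, and moved neither the number nor the direction of calls among the 10 genes. Log2 fold changes near 0 changed sign: with 1 library left out they ran from -0.21 to 0.058 in notch1a, -0.11 to 0.099 in notch1b, -0.10 to 0.11 in notch3 and -0.33 to 0.041 in jag1a. The sign was also opposite under library totals in notch1b (0.0095) and notch3 (0.025), and in notch3 with no low-count filter (0.0011) and without the libraries with eye transcripts (0.032); none of these was called, and the cause was not tested. The difference in log2 ratio of copies ran from -0.78 to -0.44 for jag1, -0.12 to 0.013 for notch1 and -0.038 to 0.076 for rbpj, which was -0.014 without the libraries with eye transcripts. The labels do not say whether the replicate numbers pair the libraries, and correlations between so few libraries cannot settle it. Deviations from the genotype mean correlated at -0.143, 0.375 and 0.0134 for numbers 1, 2 and 3. WT library 2 correlated best with its own number, WT library 3 with bcas2-KO library 1 (0.174). WT library 1 correlated best with bcas2-KO library 3 (0.29), the other library with eye transcripts. The replicate block gave 4922 calls over all genes, 4 of the 10 genes and 20 of the pathway list, against 4382, 4 and 16 without it. Depth limits rbpjb most, with counts of 102 to 197.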

Other observations

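Some of the 10 genes varied between libraries of the same genotype. Library 2 was the highest library of both genotypes in 5 of the 10 genes (notch1a, notch1b, notch3, jag1a and rbpjb), against 12.7% of all tested genes. It was so in 12 of the 19 tested genes of the her and hey family, in 3 of the 6 other ligand genes, in 3 of the 5 genes for receptor glycosylation and in 1 of the 9 inhibitor and turnover genes. It was so in 0 of the 5 genes for ligand endocytosis, 0 of the 8 for receptor cleavage, 0 of the 5 coactivator genes and 0 of the 8 corepressor genes. Among the markers it was so in 3 of 8 endothelial, 1 of 7 neuronal, 1 of 6 mural cell and 1 of 3 hatching gland genes. It was so in 0 of the muscle, lens and photoreceptor genes. The hatching gland gene was he1.1, whose highest library exceeded the lowest by 75.1-fold in WT and 11.6-fold in bcas2-KO. The Delta ligand gene dla, a mark of newborn neurons, had 20.5, 30.8 and 15.5 CPM in WT libraries 1 to 3 and 25.2, 40.2 and 22.7 CPM in bcas2-KO libraries 1 to 3. The related gene dlb had 24.3, 38.0 and 16.6 CPM and 18.7, 33.8 and 19.2 CPM. Of the 10 neural progenitor markers, 3 (sox3, sox19a and neurog1) were highest in library 2 of both genotypes. In WT alone 7 were highest there, and in bcas2-KO alone 5. Their summed level was 594, 756 and 792 CPM in WT and 568, 566 and 550 CPM in bcas2-KO, and did not follow that order. Most of this sum was gfap, at 364, 466 and 573 CPM in WT and 390, 365 and 357 CPM in bcas2-KO. The sum thus says little of the other markers. The genes jag1b, jag2b, notch2, rbpja and her6 did not show this pattern of both genotypes. In 1 genotype library 2 was still the highest for jag2b (WT) and for jag1b, rbpja and her6 (bcas2-KO). Within a genotype the highest library exceeded the lowest by 1.03-fold to 1.17-fold in these 5 genes. It did so by 1.17-fold to 1.60-fold in notch1a, notch1b, notch3 and jag1a. In rbpjb it did so by 1.09-fold in WT and 1.27-fold in bcas2-KO, so the ranges of genes with and without the pattern overlap. These genes were picked out after their values were seen, and what sets library 2 apart was not tested.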
